A study of Mus musculus with 7 samples.

Results

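The E2F and DP transcription factors were followed as 10 genes, *E2f1* to *E2f8* and the dimer partners *Tfdp1* and *Tfdp2*, chosen by name out of 21928 genes measured in preleptotene-enriched testes of the mouse. They are represented by 26 of the 43020 transcripts matched to a gene. Abundance was compared between 4 wild-type and 3 *Meioc*-null C57BL/6N pups, the latter with the germline allele *Meioc* tm1.1Dpc, and each library was made from 1.5 testes of 1 pup. All 7 pups, controls included, had received WIN 18,446, which blocks retinoic acid synthesis, at 0.1 mg/g from postnatal day 2 to day 8 and retinoic acid at 0.0125 mg/g on day 9, and testes were taken 6.75 days after that injection, so that many germ cells had reached the preleptotene stage, in which meiotic S phase takes place. Whole testis was used, so Sertoli and other somatic cells contributed to each library, and a change in a transcript may reflect fewer cells of a type or less RNA per cell, which bulk samples cannot tell apart.

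E2F proteins bind DNA at the promoters of genes for DNA replication and cell cycle entry, most of them as a dimer with a DP protein. E2F1, E2F2 and E2F3 activate these genes once cyclin-dependent kinases release them from the retinoblastoma protein, whereas E2F4 and E2F5 mostly act with the related proteins p107 and p130 as repressors in resting cells. E2F6 does not bind retinoblastoma proteins and represses as a part of Polycomb complexes, above all PRC1.6, which keeps germline genes silent in other tissues. E2F7 and E2F8 are repressors that bind DNA without a DP partner, through a pair of DNA-binding domains of their own.

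Abundance is given as CPM, the estimated count of a gene relative to the total of its library scaled by TMM, a factor for library composition. Where genes of different length are compared it is given as TPM, which is relative to the library total, per length of transcript, and was not scaled by TMM. Log2 fold changes divide wild type by *Meioc*-null, and a negative value is a higher abundance in the null. Their median over all genes was -0.0065 for counts scaled by TMM and -0.23 on the log2(TPM + 1) scale. TPM values set side by side across genotypes thus include a shift towards the null. A gene was called at an adjusted p under 0.05 in edgeR's quasi-likelihood test. Libraries held 12537852 to 20552702 estimated counts. *Meioc* itself, the targeted gene, was counted at 468, 660, 664 and 720 CPM in wild-type testes and at 400, 300 and 413 CPM in null testes, with a log2 fold change of 0.76 (SE 0.16, adjusted p = 0.021, edgeR), a call that was lost when any of 5 libraries was left out (wild-type replicates 2, 3 and 4 and null replicates 2 and 3, adjusted p from 0.057 to 0.064). The table lists *Meioc* as 1 transcript, so the deleted part was not looked at by itself. Markers of germ cells (*Ddx4*, *Dazl*, *Mael*, *Tex101* and *Sycp3*) summed to between 1986 and 2394 CPM in wild-type testes and between 1233 and 1455 CPM in null testes. Of these, 4 of 5 were called higher in wild type. Markers of undifferentiated spermatogonia, the stem and progenitor cells, ran the other way, at 188 to 216 CPM in wild-type testes and 268 to 399 CPM in null testes, with 3 of 7 tested called lower in wild type. The sum of those listed for differentiating spermatogonia (*Kit*, *Sohlh1*, *Sohlh2*, *Dmrtb1* and *Stra8*) was higher in wild type, at 501 to 707 CPM against 329 to 431 CPM. Of these genes, 1 of 5 was called higher. The study also used *Stra8* as a marker of preleptotene spermatocytes, so this sum does not measure spermatogonia alone. Sums for Sertoli cells, Leydig cells, peritubular myoid cells, endothelial cells, macrophages and post-meiotic germ cells overlapped between the genotypes, and *Prm1*, *Prm2*, *Tnp1* and *Tnp2*, which define spermatids, had at most 3 counts.

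Among the family, *E2f6* was higher and *E2f1* lower in the null, and these 2 of the 9 tested members were called. Over all 13630 genes tested, 11.1% were called. Of all genes, 7.77% were calls with a higher abundance in wild type and 3.33% were calls with a lower one. When libraries were scaled by their size alone, the share of calls that were higher in wild type moved from 70.0% to 47.3%, and both members kept their direction and their call. At an unadjusted p under 0.05 there were 4 of the 9 (*E2f1*, *E2f4*, *E2f6* and *Tfdp1*), against 30.3% of all genes. Of the 9 members, 6 had a positive and 3 a negative log2 fold change. *E2f8* was not tested because only 1 library reached 1 TPM.

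**Figure D1:**
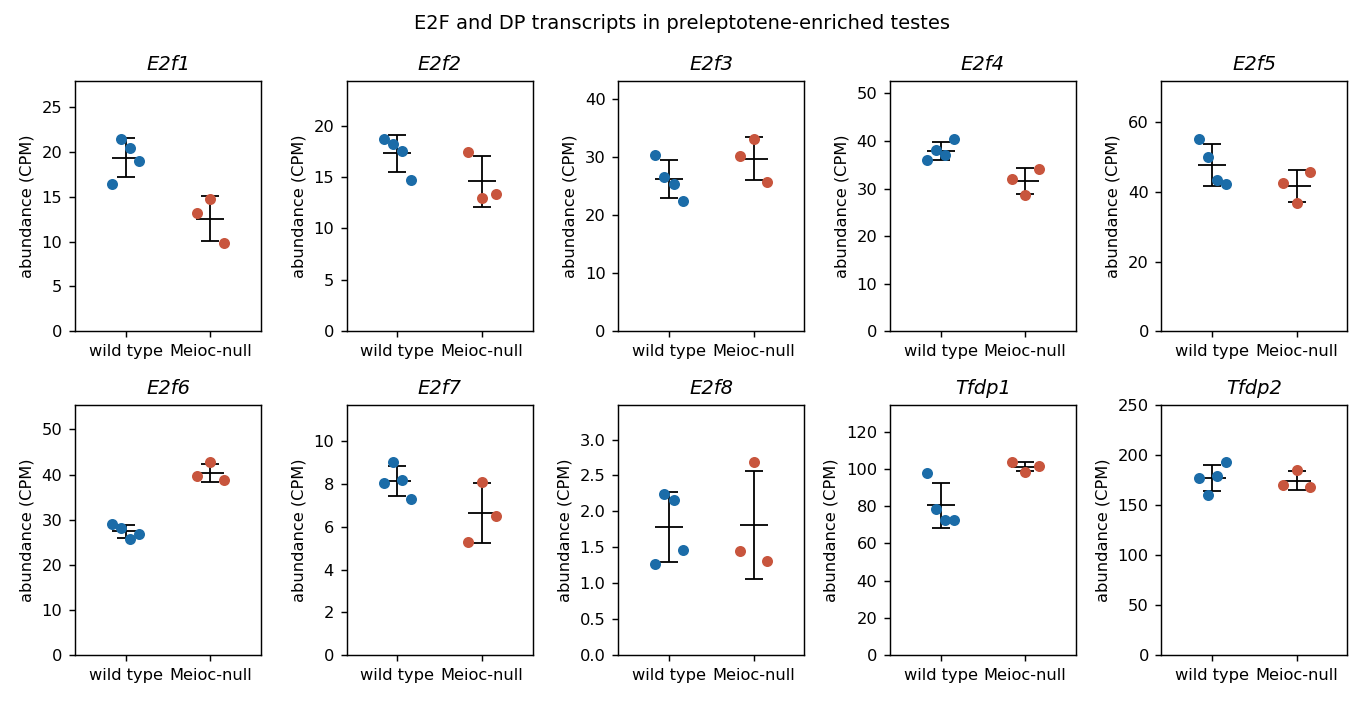
Abundance of the 10 genes in CPM (vertical axes, each starting at 0) in the wild-type (blue, n = 4) and *Meioc*-null (red, n = 3) libraries, 1 point per library in the order of replicates, with the mean and SD in black. The null libraries lie above the wild-type ones for *E2f6* and *Tfdp1* and below them for *E2f1* and *E2f4*, and the groups overlap in the other 6 panels.

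*E2f6* (ENSMUSG00000057469) lies on the plus strand at chr12:16810963-16839742 of GRCm38, and its reads were assigned to 1 listed transcript of 7 exons, *E2f6-201*, none of whose 31-base words occurs in the transcripts of another gene. Wild-type libraries held 29.0, 28.2, 25.8 and 26.8 CPM and *Meioc*-null libraries 39.6, 42.7 and 38.7 CPM. Every null library was thus above every wild-type one, and the spread within a genotype was small. The log2 fold change was -0.55 (SE 0.085, 95% interval -0.74 to -0.36, adjusted p = 0.010, edgeR), and the gene was called without each of the 7 libraries in turn, at -0.58 to -0.51. Germ cell marker sums, which were lower in the null, and undifferentiated spermatogonia sums, which were higher, differed along with it, and their part in the result was not tested. The count behind these values was 367 to 531 in wild type and 589 to 742 in the null.

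As *E2f6* is the member on which the comparison turns, its start region is shown, from 250 bases before to 50 bases after the start that RefSeq gives on GRCm38.p6, with the E2F core hexamer TCCCGC, read on either strand, in capitals. The window is at chr12:16810715-16811014 on the plus strand, and the start of *E2f6-201* lies 12 bases inside the transcribed side.
*E2f6* start region: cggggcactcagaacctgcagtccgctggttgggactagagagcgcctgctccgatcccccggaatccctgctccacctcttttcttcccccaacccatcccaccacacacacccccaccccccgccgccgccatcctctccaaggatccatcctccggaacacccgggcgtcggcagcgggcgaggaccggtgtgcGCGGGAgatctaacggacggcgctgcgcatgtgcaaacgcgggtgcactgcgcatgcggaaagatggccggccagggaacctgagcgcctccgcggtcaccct
The window holds 1 core, read as GCGGGA with its first base at -53, where +1 is the start. An 8-base E2F site, TTTCCCGC, TTTCGCGC, TTTGGCGC or TTTGCCGC on either strand, was not found there. Over 32851 RefSeq windows of this length, the core was in 20.0% and an 8-base site in 2.26%, and the first of the 8-base forms contains the core. RefSeq windows were held for 8 of the 10 members and numbered 12, of which 8 had the core and 5, in 4 genes, an 8-base site. These windows are not all independent, as the 2 of *Tfdp1* overlap and the same 8-base site and the same 3 cores are counted in both. The second RefSeq start of *E2f2* lay 8388 bases downstream of its listed transcript start. Their GC content ran from 39.3% to 80.7%. For *E2f1* the RefSeq start lay 294 bases downstream of the nearest listed transcript start, and for *Tfdp2* both starts were internal ones with at most 3.28% of its counts, so these windows do not show where most of their transcripts begin.

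*E2f6* and *E2f4* changed places in the order of levels per length. *E2f6* stood at 20.9, 18.0, 16.6 and 17.2 TPM in the wild-type libraries and at 30.0, 36.7 and 28.3 TPM in the null. For *E2f4* the values were 25.1, 23.7, 23.3 and 25.4 TPM, then 23.5, 23.5 and 24.1 TPM. *E2f6* was therefore below *E2f4* in 4 of 4 wild-type libraries and above it in 3 of 3 null libraries. The ratio of *E2f6* to *E2f4* in TPM was 0.831, 0.760, 0.713 and 0.679 in wild type and 1.28, 1.56 and 1.17 in the null.

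In wild type, mean levels fell in the order *Tfdp2* (112 TPM), *E2f5* (60.2), *Tfdp1* (59.7), *E2f4* (24.4), *E2f6* (18.2), *E2f1* (7.26), *E2f3* (6.59), *E2f7* (4.18), *E2f2* (3.45) and *E2f8* (0.706 TPM). Ranges overlapped between the neighbours *E2f5* and *Tfdp1*, *E2f1* and *E2f3*, and *E2f7* and *E2f2*, each in its order in 3 of 4 libraries. In the null the order was *Tfdp2* (118 TPM), *Tfdp1* (88.8), *E2f5* (62.0), *E2f6* (31.7), *E2f4* (23.7), *E2f3* (8.91), *E2f1* (5.68), *E2f2* (3.41), *E2f7* (3.11) and *E2f8* (0.895 TPM), and the ranges of *E2f2* and *E2f7* alone overlapped. Repressors of the E2F4 and E2F5 class made up the bulk of E2F transcripts in both genotypes, and the DP genes together outnumbered the E2F genes by 1.20 to 1.53 times in wild type and 1.44 to 1.55 times in the null.

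Of the summed TPM of the 8 E2F genes, *E2f6* held 14.3%, 14.4%, 14.6% and 15.0% in wild type. In the null it held 22.0%, 24.9% and 21.0%. The share of *E2f4* and *E2f5* together was 66.9% to 68.7% in wild type and 56.8% to 65.9% in the null, again without overlap, while the activators *E2f1* to *E2f3* overlapped at 13.2% to 15.0% and 10.6% to 14.5%. These are shares of a total that includes *E2f6*, so a larger share of one gene lowers the others.

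**Figure D2:**
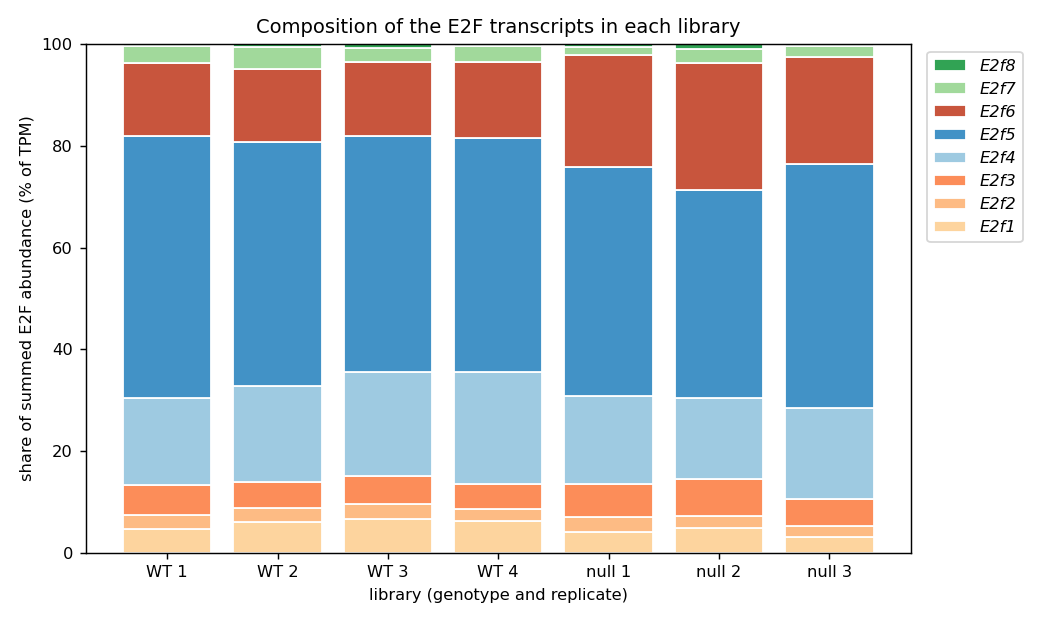
Share of each E2F gene in the summed TPM of *E2f1* to *E2f8* (vertical axis, percent) in each library (horizontal axis). The dark red segment, *E2f6*, takes 14.3% to 15.0% of the 4 wild-type bars and 21.0% to 24.9% of the 3 null bars, and *E2f5* is the tallest segment in all 7.

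A ratio within a library does not depend on how libraries are scaled to each other. The log2 count ratio of *E2f6* to each of the 9 other members was lower in wild type, by -1.19 for *E2f1*, -0.86 for *E2f7*, -0.82 for *E2f4*, -0.81 for *E2f2*, -0.75 for *E2f5*, -0.58 for *Tfdp2*, -0.56 for *E2f8*, -0.37 for *E2f3* and -0.21 for *Tfdp1*. Groups did not overlap for 8 of the 9, *E2f8* being the exception, with a two-sided exact permutation p = 0.057 for each of the 8, the smallest that 4 against 3 libraries allow, and 0.064 after Benjamini-Hochberg adjustment over the 9. Among all 13629 other genes tested, 71.7% had a ratio to *E2f6* that did not overlap between the genotypes, and the count of 8 is to be read against that share. The ratios to *E2f3* and *Tfdp1*, whose own fold changes had the sign of *E2f6*, differed least.

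Of the activators, *E2f1* was called and *E2f2* and *E2f3* were not. *E2f1* (ENSMUSG00000027490, chr2:154559407-154569892, minus strand), the founding activator, held 16.4, 21.5, 20.5 and 19.0 CPM in wild-type testes and 13.1, 14.7 and 9.85 CPM in null testes. All null libraries lay below all wild-type ones. The log2 fold change was 0.63 (SE 0.16, 95% interval 0.28 to 0.98, adjusted p = 0.033, edgeR). The call was lost without wild-type replicate 2, 3 or 4 or null replicate 2 or 3, at log2 fold changes of 0.57, 0.60, 0.62, 0.75 and 0.48 and adjusted p from 0.051 to 0.099. On the log2(TPM + 1) scale it was 0.33 (adjusted p = 0.16, limma), against a median of -0.23 for all genes, and the TPM of the 2 genotypes overlapped, at 6.74 to 7.65 and 4.08 to 7.26. As with *E2f6*, the germ cell marker sums differed in the same libraries, here in the direction of the gene, and their part was not tested.

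*E2f2* (chr4:136172394-136196057, plus strand), an activator best known from blood cells, held 18.7, 18.2, 17.5 and 14.7 CPM in wild-type testes and 17.5, 13.0 and 13.3 CPM in null testes. Its log2 fold change of 0.24 (95% interval -0.078 to 0.56) was not called (adjusted p = 0.28, edgeR), and the libraries overlapped. *E2f3* (chr13:29906575-29986063, minus strand) held 30.3, 26.6, 25.3 and 22.5 CPM, then 30.2, 33.2 and 25.8 CPM in null testes. With a log2 fold change of -0.18 (95% interval -0.47 to 0.10, adjusted p = 0.36, edgeR), it was not called either.

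**Figure D3:**
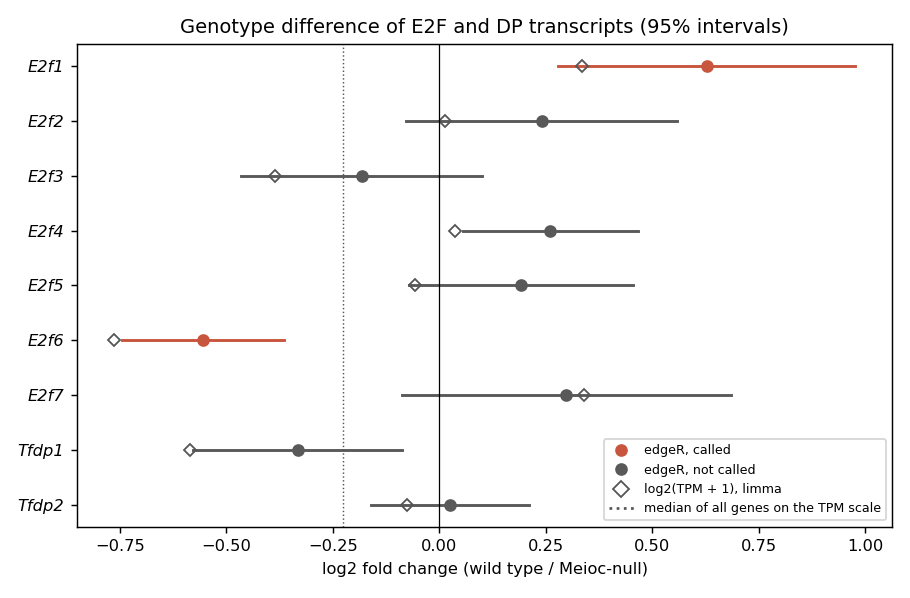
Log2 fold change, wild type over *Meioc*-null, of the 9 tested members (horizontal axis). Filled circles and bars are edgeR estimates with 95% intervals, red where called, and open diamonds are limma estimates on log2(TPM + 1), whose median over all genes, -0.23, is the dotted line. *E2f6* at -0.55 and *E2f1* at 0.63 are the red circles, and every diamond but that of *E2f7* lies to the left of its circle.

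*E2f3* is transcribed from 2 start sites, which give the E2F3A and E2F3B proteins, and the listed transcripts separate them. The start regions are shown because the forms are counted apart: the upstream one, of *E2f3-201*, at chr13:29986014-29986313, and the internal one, of *E2f3-203* and *E2f3-204*, at chr13:29984342-29984641, both on the minus strand and both with the RefSeq start at the listed transcript start. Capitals mark the core and, where present, the 8-base site.
*E2f3* upstream start region: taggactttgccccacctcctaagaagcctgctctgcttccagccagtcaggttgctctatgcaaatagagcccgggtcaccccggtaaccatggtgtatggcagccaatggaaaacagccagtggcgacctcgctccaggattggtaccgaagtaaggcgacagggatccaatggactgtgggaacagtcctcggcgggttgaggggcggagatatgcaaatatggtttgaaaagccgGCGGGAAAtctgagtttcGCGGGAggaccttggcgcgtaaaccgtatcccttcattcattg
*E2f3* internal start region: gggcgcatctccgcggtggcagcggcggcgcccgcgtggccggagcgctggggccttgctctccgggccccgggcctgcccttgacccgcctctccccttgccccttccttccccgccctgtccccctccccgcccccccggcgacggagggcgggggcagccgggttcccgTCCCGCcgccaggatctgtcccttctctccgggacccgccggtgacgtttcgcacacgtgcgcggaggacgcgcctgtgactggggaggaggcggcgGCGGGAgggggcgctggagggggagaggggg
The upstream window holds an 8-base site, read as GCGGGAAA, whose first base is at -11 and which includes a core, and a further core at 8. The internal window holds 2 cores, at -78 and 20, and no 8-base site. The upstream form took 43.5%, 71.9%, 63.2% and 61.3% of the gene's counts in wild type and 51.3%, 64.2% and 41.6% in the null. Both genotypes thus spanned much the same range (two-sided exact permutation p = 0.51 for n = 4 and 3), and libraries of 1 genotype differed more than the genotype means did. *E2f3-203* has no 31-base word of its own and the split between it and *E2f3-204* varied from 0% to 36.8% of the counts for *E2f3-203*, so these are given together.

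Neither of the repressor partners of p107 and p130 was called. *E2f4* (chr8:105297663-105305370, plus strand) held 36.0, 38.0, 37.0 and 40.5 CPM in wild-type testes and 32.1, 28.6 and 34.1 CPM in null testes, so that the groups did not overlap. Its log2 fold change of 0.26 (95% interval 0.056 to 0.47) had an adjusted p of 0.092 in edgeR's test and was not called, and its TPM overlapped between the genotypes. *E2f5* (chr3:14578641-14606309, plus strand) held 55.2, 50.0, 43.4 and 42.4 CPM in wild-type testes and 42.5, 36.8 and 45.8 CPM in null testes, with overlap. It was not called at 0.19 (95% interval -0.070 to 0.46, adjusted p = 0.30, edgeR), and its sign turned on the log2(TPM + 1) scale, to -0.056. In CPM, 4 of the 9 tested members had groups that did not overlap (*E2f1*, *E2f4*, *E2f6* and *Tfdp1*), against 26.2% of all genes tested. In TPM there were 2 (*E2f6* and *Tfdp1*), against 33.3%.

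The atypical repressors were the scarcest E2F transcripts with *E2f2*. *E2f7* (chr10:110745439-110787384, plus strand) held 8.06, 9.02, 8.17 and 7.32 CPM in wild-type testes and 5.29, 8.12 and 6.53 CPM in null testes, with overlap, and its log2 fold change of 0.30 (95% interval -0.089 to 0.69, adjusted p = 0.27, edgeR) was not called. Of its counts, 31.5% to 41.8% were assigned to 3-exon transcripts that stop early, *E2f7-205* and *E2f7-209*, and the remainder to 13-exon ones, with no separation by genotype (two-sided exact permutation p = 1 for n = 4 and 3). *E2f8* (chr7:48866429-48881596, minus strand) rested on 16, 32, 32 and 29 counts in wild type and 27, 37 and 24 in the null. At 1.26 to 2.24 and 1.31 to 2.68 CPM the libraries overlapped. As the gene was not tested, nothing is said about a difference.

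Of the dimer partners, *Tfdp2* had the highest mean TPM of all members in both genotypes. *Tfdp1* came next in the null and overlapped with *E2f5* in wild type, and it had the sign of *E2f6*. *Tfdp1*, which encodes DP1 (ENSMUSG00000038482, chr8:13338751-13378448, plus strand), held 98.1, 78.6, 72.8 and 72.6 CPM in wild-type testes and 103, 98.5 and 102 CPM in null testes. The lowest null library was above the highest wild-type one, replicate 1, by a narrow margin. The log2 fold change was -0.33 (SE 0.11, 95% interval -0.58 to -0.087) and was not called (adjusted p = 0.077, edgeR). Without wild-type replicate 1 it was -0.44 and called (adjusted p = 0.0067). It was also called by DESeq2 on the same genes (-0.34, adjusted p = 0.037) and by limma on log2(TPM + 1) (-0.58, or -0.36 relative to the median of all genes, adjusted p = 0.028). In TPM, *Tfdp1* stood at 79.0, 56.2, 51.6 and 52.2 in wild type and at 87.5, 94.1 and 84.7 in the null.

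The start region of *Tfdp1* is shown for comparison with that of *E2f6*, as the gene that came next to it in the negative direction. It is the window of *Tfdp1-204*, the form with most of the counts, at chr8:13338501-13338800 on the plus strand.
*Tfdp1* start region: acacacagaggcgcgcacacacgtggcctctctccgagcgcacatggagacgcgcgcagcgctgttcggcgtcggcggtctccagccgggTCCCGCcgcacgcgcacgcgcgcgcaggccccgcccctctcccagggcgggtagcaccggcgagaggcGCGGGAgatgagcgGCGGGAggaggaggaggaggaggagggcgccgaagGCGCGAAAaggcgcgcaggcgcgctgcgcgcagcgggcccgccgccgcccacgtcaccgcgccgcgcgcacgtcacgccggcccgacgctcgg
Unlike the *E2f6* window it holds an 8-base site, read as GCGCGAAA from -43, and it has 3 cores, at -160, -92 and -78. Its GC content was 78.0%, against 68.0% for *E2f6*.

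*Tfdp2*, which encodes DP2 (chr9:96196275-96323646, plus strand), did not differ detectably as a gene, at 177, 160, 180 and 193 CPM in wild-type testes and 170, 186 and 168 CPM in null testes. Its log2 fold change of 0.024 (95% interval -0.16 to 0.21, adjusted p = 0.87, edgeR) had an interval that took in both signs, and the sign turned when libraries were scaled by size alone (-0.053) and on the log2(TPM + 1) scale (-0.076). *Tfdp1* accounted for 39.8%, 37.5%, 31.6% and 29.8% of the summed DP TPM in wild type. In the null it accounted for 44.4%, 41.2% and 43.5%, above all wild-type libraries.

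At the level of single transcripts, 20 of the 26 were tested and 0 were called by edgeR, where 0.0639% of 21920 transcripts were called, 14 in all. At an unadjusted p under 0.05 there were 7, of which 4 were higher in wild type and 3 lower, against 17.4% of all transcripts. DESeq2 called 2, *E2f6-201* (-0.57) and *Tfdp1-204* (-0.47, adjusted p = 0.0027), and 11.8% of all transcripts, while limma on log2(TPM + 1) called 0 members. *E2f6-201* had a log2 fold change of -0.57 and an adjusted p of 0.078 in edgeR's transcript fit. *Tfdp1-204* was the main form of its gene, with 74.5% to 90.3% of the counts in wild type and 83.0% to 95.3% in the null, and it shares all but 0.927% of its 31-base words with the other *Tfdp1* transcripts.

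In the shares that transcripts took of their gene's counts, the genotypes did not overlap for 2 forms, both of *Tfdp2*. *Tfdp2-201*, the longest form, with 62.7% of its 31-base words found in no other listed transcript of the gene, took 52.4%, 53.5%, 49.1% and 48.9% of the gene's counts in wild type and 57.8%, 57.2% and 56.9% in the null. The null libraries were above all wild-type ones and close to each other. *Tfdp2-209* went the other way, with 27.8%, 27.5%, 29.4% and 31.4% in wild type and 23.6%, 22.2% and 26.4% in the null. Each had a two-sided exact permutation p = 0.057, the smallest possible, and 0.51 after adjustment over the 18 shares tested in 7 genes. These 2 of 18 shares stand against 8.23% of the shares of all genes, which did not overlap either, so nothing is read from them about *Tfdp2*. As shares of the gene's TPM, *Tfdp2-201* still did not overlap, at 14.8% to 17.5% and 19.2% to 20.5%, while *Tfdp2-209* did, at 58.0% to 61.6% and 50.9% to 58.4%. Without null replicate 3 the number of count shares without overlap was 6. Groups separate more readily with fewer libraries, and the 8.23% is for all 7 libraries, so the 6 cannot be set against it. In CPM, *Tfdp2-201* held 92.9, 85.8, 87.8 and 94.8 in wild type and 100, 107 and 97.1 in the null, and *Tfdp2-209* held 49.3, 44.1, 52.5 and 60.8, then 40.9, 41.4 and 45.0.

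**Figure D4:**
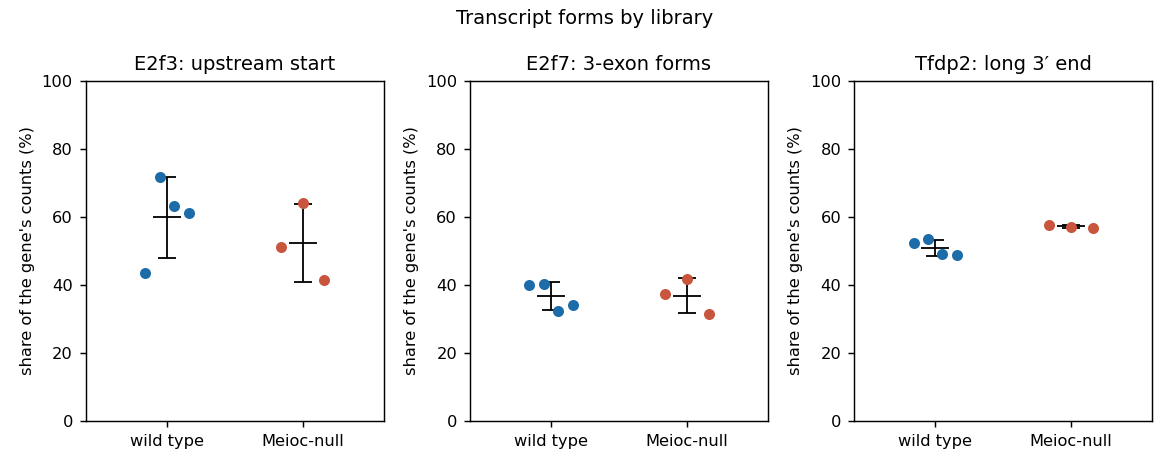
Share of a gene's estimated counts (vertical axis, percent) taken by the upstream-start form of *E2f3*, the 3-exon forms of *E2f7* and the longest form of *Tfdp2*, *Tfdp2-201*, in wild-type (blue, n = 4) and *Meioc*-null (red, n = 3) libraries, with mean and SD in black. The groups overlap for *E2f3* and *E2f7*, and for *Tfdp2* the null libraries, at 56.9% to 57.8%, lie above the wild-type ones, at 48.9% to 53.5%.

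The count shares of the other members with several transcripts overlapped between the genotypes. *E2f1-202* took 56.7% to 81.8% of the counts of *E2f1* in wild type and 47.6% to 92.2% in the null, with *E2f1-201* as the remainder. *E2f5-202* took 65.0% to 82.5% and 61.1% to 71.1% of the counts of *E2f5*. *Tfdp2-202* and *Tfdp2-206* held 9.47% to 12.3% and 6.31% to 7.71% of *Tfdp2* in wild type, and 9.06% to 11.0% and 6.66% to 10.2% in the null. Those of the other *E2f7*, *E2f8* and *Tfdp1* transcripts also overlapped. As a share of TPM, *E2f7-209* did not overlap, at 22.8% to 35.2% in wild type and 35.7% to 43.8% in the null. Its two-sided exact permutation p was 0.057, and 0.51 after adjustment over the 18 shares tested. How many TPM shares of all genes did not overlap was not counted, so nothing is read from this one.

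The genes around the family in its pathway were read from 5 lists, and 32 of their genes were called, all higher in wild type in edgeR's test, where 11.1% of all genes were called and 7.77% were calls of that direction. On the log2(TPM + 1) scale limma called 21 of the list genes higher and 10 lower in wild type. Over all 13630 genes it called 2522, of which 17.4% were higher. With libraries scaled by size alone edgeR called 30 list genes higher and 2 lower. In that fit 1714 genes were called in all, of which 47.3% were higher. None of the 10 genes of the pocket protein and MuvB/DREAM list, which includes the MYB genes *Mybl1* and *Mybl2*, was called. Their log2 fold changes ran from -0.37 for *Mybl2* to 0.46 for *Mybl1*, which encodes A-MYB, a regulator of meiotic genes in the testis (both named after their values were seen). At an unadjusted p under 0.05 there were 6 of the 10, against 30.3% of all genes. Their median was 0.010, against -0.0065 over all genes tested, of which 49.1% were positive. DESeq2 called 1 of them, and 2331 genes in all. On the log2(TPM + 1) scale 4 of the 10 were called lower in wild type.

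Of 18 genes for the control of E2F activity (cyclins, cyclin-dependent kinases, their inhibitors and *Skp2*), 2 were called. Both were cyclins E, the partners of CDK2 at entry into S phase. Wild-type testes held 16.9 ± 3.64 CPM (SD, n = 4) of *Ccne1* and null testes 7.97 ± 2.07 CPM (SD, n = 3), with a log2 fold change of 1.08 (SE 0.22, adjusted p = 0.018, edgeR). *Ccne2* was at 490 ± 131 CPM and 198 ± 59.5 CPM, a log2 fold change of 1.31 (SE 0.26, adjusted p = 0.018). The 2 of 18 are near the 11.1% called over all genes, and the median of the list was 0.035. On the log2(TPM + 1) scale 2 were called higher and 4 lower in wild type, where 17.4% of the 2522 calls over all genes were higher. The list's number of calls was 0 without wild-type replicate 2 or 3 or null replicate 2 or 3, 1 without wild-type replicate 4, 3 without wild-type replicate 1 and 5 without null replicate 1.

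Of 35 genes that E2F proteins are known to drive at the entry into S phase, 20 were called, all of them higher in wild type, against 7.77% of all genes. Their median log2 fold change was 0.56, and 31 were positive. *Rrm2*, a subunit of ribonucleotide reductase, was at 75.6 ± 18.5 CPM in wild-type testes and 30.1 ± 7.22 CPM in null testes (log2 fold change 1.33, adjusted p = 0.012, edgeR). *Prim1* (1.21), the primase subunit, *Asf1b* (1.19), a histone chaperone, *Hells* (1.07), a chromatin remodeller, and *Orc1* (0.99), of the origin recognition complex, followed, and *Dnmt1* (0.45), the maintenance DNA methyltransferase, was the called gene with the smallest change. The number called was 13 by limma on log2(TPM + 1), where the list's median was 0.27 and that of all genes -0.23. It was 0 without null replicate 3, 8 without null replicate 2, 9 without wild-type replicate 2 or 3, and 11 without wild-type replicate 4. Over all genes these fits called 131, 353, 296, 275 and 478, in that order, in place of 1513. With replicate number added to the fit as a block, 0 genes of this list were called, and 109 genes in all. Germ cell marker sums differed in the same direction as the genes of this list, and their part was not tested.

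Among 13 subunits and partners of PRC1.6, the complex that E2F6 joins, 2 were called, both higher in wild type, with a median of 0.12. With 7.77% of all genes called in that direction, 2 of 13 is not read as a result about the list. They were *L3mbtl2* (log2 fold change 0.36, SE 0.097, adjusted p = 0.043, edgeR), which reads histone methylation, and *Hdac1* (0.35, SE 0.072, adjusted p = 0.019), a histone deacetylase. *Mga*, the scaffold of the complex and the DNA-binding partner of MAX, was at 616 ± 26.8 CPM in wild-type testes and 612 ± 91.5 CPM in null testes (log2 fold change 0.0088, adjusted p = 0.96, edgeR) and was named after its values were seen. No gene of this list had a fold change as negative as that of *E2f6*: its lowest value was -0.11, for *Cbx3*. The 2 calls were lost without wild-type replicate 2, 3 or 4 or null replicate 2 or 3, and became 4 without wild-type replicate 1. On the log2(TPM + 1) scale 0 were called higher and 2 lower, where 17.4% of the 2522 calls over all genes were higher.

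Of 9 germline genes known to be repressed by E2F6 or PRC1.6 outside the germline, 8 were called, all higher in wild type, and the median was 0.73. Over all genes tested, 7.77% were calls of that direction and the median was -0.0065. *Meiosin*, which encodes the partner of STRA8 at meiotic entry, was at 222 ± 54.6 CPM in wild-type testes and 28.7 ± 4.67 CPM in null testes (log2 fold change 2.95, SE 0.22, adjusted p = 0.00058, edgeR). The meiotic cohesin genes *Smc1b* (1.74) and *Stag3* (1.38), the axis gene *Hormad1* (1.73), the TFIID subunit *Taf7l* (0.73) and the piRNA gene *Mael* (0.36) were also called. *Tuba3b*, the gene not called (0.45, adjusted p = 0.080), has a near-identical copy, *Tuba3a* (0.68), and the division of reads between them is uncertain. Several of these genes, *Meiosin*, *Stag3*, *Smc1b* and *Hormad1* among them, were named by the study on this mutant, so the list is not independent evidence of a direction, and *Mael* is also one of the 5 germ cell markers. All 9 are transcribed in germ cells, whose marker sums were lower in the null. The number called was 5 without wild-type replicate 2 or 3 or null replicate 3.

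**Figure D5:**
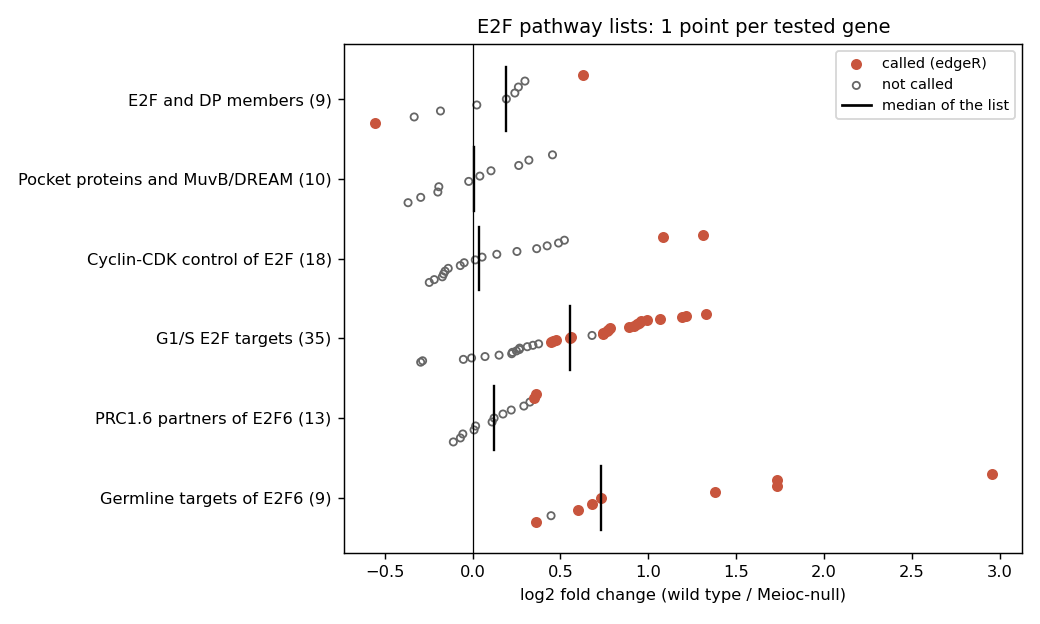
Log2 fold change, wild type over *Meioc*-null (horizontal axis), of each tested gene of the family and of the 5 pathway lists, with the number of genes in parentheses. Red points were called, open points were not, and black bars are medians. The E2F target and germline lists have medians of 0.56 and 0.73, and of all points *E2f6*, at -0.55, is the sole red one below 0 in this edgeR fit.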

How the data were processed

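Total RNA depleted of ribosomal RNA was sequenced in 7 testis samples, grouped by the genotype in their labels. The authors trimmed reads with cutadapt 1.8 and ran kallisto 0.44.0, with strand and sequence-bias correction, on GENCODE Basic transcripts, and deposited 2 values per protein-coding transcript, its estimated count, not normalized across libraries, and its TPM, renormalized over such transcripts. Reads that match several transcripts are divided between them by estimation. ERCC spike-in mixes that differed by genotype were added, and were not used here.

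Of 43139 transcripts, 43020 found a gene in GENCODE vM21 (GRCm38); the other 119, with 0.247% to 0.282% of the counts, were left out. Estimated counts were summed by gene and rounded, genes (or transcripts) reaching 1 TPM in 3 or more of the 7 samples were kept, and TMM and edgeR 4.0.16's quasi-likelihood test in R 4.3.3 were applied without covariates, with Benjamini-Hochberg adjustment over all features kept. Depth was 12537852 to 20552702 estimated counts per library, where 3 counts, taken as the floor, come to 0.151 to 0.237 CPM (counting error only). Shares and ratios went through an exact two-sided permutation test, for ratios with 0.5 added to each count. Uniqueness was measured by 31-base words of the transcripts. The scripts were tested on simulated data.

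The members and gene lists were chosen with earlier results of these data known. The text names all members, their transcripts with a mean share of at least 5%, the called genes of each list with the most and least change and up to 4 more in order of size, and the 5 genes with a profile nearest to *E2f6* among those with a mean of at least 10 CPM; exceptions are said to be chosen after their values were seen. Alternatives were DESeq2 1.42.0, limma 3.58.1 on log2(TPM + 1) or log2(TPM + 0.1), RLE or library size scaling, other filters, each library left out and a replicate block. A correction for trends with transcript length, and a robust spread for transcripts, were added after the data were seen. Start regions are from RefSeq (GRCm38.p6).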

Additional observations from a re-analysis of the deposited data

Results flagged for a closer look

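*Tfdp1* stood out in 1 wild-type library. Replicate 1 held 79.0 TPM, while the other 3 wild-type libraries held 51.6 to 56.2 TPM, a gap to the nearest of them that exceeded the 95% limit of Dixon's test for 4 samples by a narrow margin. It was 1 of 49 groups of values examined in this way, and chance alone marks about 1 group in 20. The null libraries held 84.7 to 94.1 TPM.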

How the results depend on the processing

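The call of *E2f6* held in 16 of 17 alternatives, at log2 fold changes of -0.79 to -0.51, and that of *E2f1* in 9 of 17, at 0.33 to 0.75. *Tfdp1* was called in 4 of 17 and no other tested member in any. With the replicate block the log2 fold change of *Meioc* was 0.68 (adjusted p = 0.0997), 0 members, with *E2f6* at -0.54 (adjusted p = 0.089) and *E2f1* at 0.64 (0.12), and 4 list genes were called, in place of 32, and 109 genes in all in place of 1513. Same-numbered libraries were no more alike than others: their deviations correlated at -0.17 to -0.012 and those of other pairs at -0.083 to 0.17. With 3 same-numbered pairs and deviations taken within each genotype, this cannot exclude pairing or a shared batch. Leaving out 1 library gave 0.63 to 0.88 for *Meioc*, 1 to 3 members called, 0 to 1 member transcripts, 5 to 40 list genes, 8 to 9 separated ratios of *E2f6* and 2 to 6 separated transcript shares. Over all genes these fits called from 131 (without null replicate 3) to 2172 (without wild-type replicate 1), so losses of calls were not particular to the members or lists. DESeq2 called 2 member transcripts in place of 0. The sign turned for *E2f5* under limma on log2(TPM + 1) (-0.056) and log2(TPM + 0.1) (-0.057), and for *Tfdp2* under these (-0.076 and -0.077), library size scaling (-0.053), the block (-0.019), and without wild-type replicate 4 (-0.035) or null replicate 3 (-0.0029), the range over omitted libraries being -0.035 to 0.071, with no call on either side. On the log2(TPM + 1) scale 17.4% of calls were higher in wild type. The cause of these changes was not tested. Null replicate 2 had a trend with transcript length, from -0.26 (log2) in the shortest genes to 0.23 in the longest. With 16 to 37 counts, *E2f8* is limited by depth.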

Other observations

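The 5 genes whose profile over the 7 libraries was nearest to that of *E2f6*, by the root mean square difference of centred log2 CPM among 10244 genes, were *Stx2* (0.053), a syntaxin, *Fndc5* (0.060), the precursor of irisin, *Shtn1* (0.063), *Mgat4a* (0.076), a glycosyltransferase, and *Itgb8* (0.077), an integrin subunit. The median difference over all those genes was 0.32. *Stx2* was at 13.5 to 15.4 CPM in wild type and 22.0 to 22.4 CPM in the null, *Fndc5* at 113 to 138 and 180 to 183 CPM, and *Shtn1* at 93.8 to 97.3 and 126 to 147 CPM. These genes were picked for their likeness, so their own differences are a description. Of the other family members with a mean of at least 10 CPM, *Tfdp1* was nearest, at rank 325 (0.15), then *E2f3* at rank 1466 (0.21), and *E2f1* came at rank 9723 (0.60).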
